A study of Mus musculus with 2 samples.

Results

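The paracrine effectors of hormone-sensing mammary cells were described by 7 genes in 1 single-cell library of adult mouse mammary epithelium: Areg, Wnt4, Tnfsf11, Calca, Stc2, Cited1 and Greb1. They were taken by symbol from the 27998 genes counted, and all 7 members were found once. The study profiled mammary glands of adult FVB/NJ mice, an inbred strain, without treatment, on the 10X Genomics Chromium platform, which tags every RNA molecule of a cell with a cell barcode and a random molecular tag. One library held total epithelium (Lin–CD24+, that is, cells without blood and endothelial surface proteins and with CD24) and the other held basal cells sorted as Lin–CD29hi CD24+. The series drew on 8 mice, pooled and not tied to libraries by the labels, so there was 1 library per group, cells were not replicates, and no comparison could be tested. All intervals are exact 95% intervals (Poisson for counts, conditional for ratios of counts, Clopper-Pearson for shares of cells) and cover counting error only. Limits given for a count of 0 are those of 3 counts, and they bound the share of cells with a count, not the share of cells that express a gene.

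The mammary duct has an outer basal layer and an inner luminal layer. Estrogen, progesterone and prolactin are sensed mainly by mature luminal (ML) cells, most of which do not divide in response themselves; they pass the signal on through secreted factors to neighbouring luminal progenitor (LP) and basal cells. Amphiregulin (Areg) is a membrane-anchored ligand of the epidermal growth factor receptor that carries the estrogen signal in ductal growth, Wnt4 and RANKL (Tnfsf11) carry progesterone signals, Calca encodes calcitonin and the calcitonin gene-related peptide, and Stc2 encodes the secreted glycoprotein stanniocalcin 2. Cited1 is a transcriptional co-regulator of the estrogen receptor, and Greb1 is a classical estrogen-induced gene.

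The 3302 cells of the total epithelium held 802 to 12967 counts each, with a median of 2426. Cells with 10 or more counts of Krt5, Krt14 and Acta2 were called basal (1281 cells, median 1821 counts), cells with 8 or more counts of Prlr and Gpx3 were called ML (1061 cells, median 3470 counts), and other cells with 3 or more counts of Krt8, Krt18 and Krt19 were called LP (838 cells, median 2494 counts). Another 25 cells passed both the basal and the ML cut and 97 passed none. As class sums, the names held against markers that the cuts did not use. The LP class also held cells just under the ML cut that clustered mostly with ML cells, described below. Esr1, Pgr, Foxa1 and Ly6d, 4 of 4 further ML markers, were highest in ML cells, Elf5, Kit, Csn3, Aldh1a3, Cd14, Lcn2 and Wfdc18 were highest in LP cells, and Krt17, Myh11, Oxtr, Trp63 and Cnn1 were highest in basal cells. Of 4 listed immune genes Ptprc and Cd52 had 0 counts in the 3 classes, Lyz2 had 9 in basal cells and 1 in LP cells, and Cd74 had 109 in 64 basal cells, 8 in LP cells and 7 in ML cells. All 5 listed fibroblast markers were highest in ML cells: Col1a1, Col1a2, Col3a1 and Lum were counted in 0.942% to 1.60% of ML cells, and Dcn, also counted in 25.1% of basal cells, in 33.8%. A cluster of 26 cells led by fibroblast genes held 12 ML cells, and their part in the members' levels was not tested. The libraries shared 28 cell barcodes, 0.848% of the total epithelium and 0.587% of the sorted basal library.

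The members lie on 7 chromosomes and none overlapped another listed gene except Greb1, which in the GENCODE annotation of GRCm38 overlaps an antisense gene and a microRNA gene that the count table does not list. Areg (ENSMUSG00000029378) lies on chromosome 5 at 91139599 to 91148432, Wnt4 (ENSMUSG00000036856) on chromosome 4 at 137277489 to 137299726, and Tnfsf11 (ENSMUSG00000022015) on chromosome 14 at 78277445 to 78308043. Calca (ENSMUSG00000030669) lies on chromosome 7 at 114631478 to 114636357, Stc2 (ENSMUSG00000020303) on chromosome 11 at 31357307 to 31370074, Cited1 (ENSMUSG00000051159) on chromosome X at 102247381 to 102252181, and Greb1 (ENSMUSG00000036523) on chromosome 12 at 16670615 to 16800886. All 7 are protein-coding.

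The 250 bases before the start site are shown for Areg and for Tnfsf11 and Calca, since the last 2 ran opposite to Areg over ML cells ordered by Gpx3. RefSeq promoters (GRCm38.p6) were matched for 7 of 7 members, 10 promoters in all, and searched on both strands for the half-site of the estrogen response element, AGGTCA, the cyclic AMP response element, TGACGTCA, and the TATA box, TATAAA. Capitals mark the matches, and sequences run 5′ to 3′ on the strand of the gene.
Areg, chr5:91139349-91139598, plus strand: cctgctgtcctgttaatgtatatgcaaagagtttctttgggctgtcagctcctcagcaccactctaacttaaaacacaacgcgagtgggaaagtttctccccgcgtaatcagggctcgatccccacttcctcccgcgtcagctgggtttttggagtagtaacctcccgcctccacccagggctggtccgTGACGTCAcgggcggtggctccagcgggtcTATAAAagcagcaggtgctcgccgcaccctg
Tnfsf11, chr14:78308044-78308293, minus strand: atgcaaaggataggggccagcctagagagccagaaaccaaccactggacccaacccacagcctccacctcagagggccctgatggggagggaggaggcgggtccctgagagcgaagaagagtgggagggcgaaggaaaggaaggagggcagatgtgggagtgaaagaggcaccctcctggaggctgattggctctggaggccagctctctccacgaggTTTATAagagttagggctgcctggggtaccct
Calca, chr7:114636358-114636607, minus strand: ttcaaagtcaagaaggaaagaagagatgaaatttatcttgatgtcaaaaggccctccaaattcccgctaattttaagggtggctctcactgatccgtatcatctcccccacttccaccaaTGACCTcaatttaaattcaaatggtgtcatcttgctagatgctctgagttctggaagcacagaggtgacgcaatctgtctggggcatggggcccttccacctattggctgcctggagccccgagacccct
The Areg promoter held the cyclic AMP response element at −61, a match found in 1.55% of the 32851 mouse promoters, and a TATA box at −31, found in 12.4%. Tnfsf11 held a TATA box match on the opposite strand at −32. Calca held the half-site at −130, on the opposite strand, and 14.02% of promoters hold that half-site. Half-site matches also lay in 1 promoter each of Cited1 (−217) and Greb1 (−88), and TATA box matches in 2 Cited1 promoters (−13 and −115). The windows of Wnt4 and Stc2 held none of the motifs. No member promoter held the full estrogen response element or the progesterone response element. These are found in 0.0639% and 0.0609% of promoters, so their absence here says little. A match is a match of letters and not a binding site.

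Areg, Stc2 and Cited1 were the members seen in most ML cells. Levels are given as counts of the gene scaled to 1000000 counts of the class (CPM), from tags at the 3′ end of transcripts and therefore not divided by gene length. Areg had 12086 counts in ML cells, 3062 CPM (3008 to 3117), against 649 counts and 277 CPM (256 to 299) in LP cells and 80 counts and 30.1 CPM (23.9 to 37.5) in basal cells. The level in ML cells was thus 11.1-fold (10.2 to 11.99) that in LP cells and 102-fold (81.6 to 128) that in basal cells. The ratio to LP cells moved with the cut by far more than its interval: its log2 of 3.47 was 2.19 with ML cells chosen by Prlr alone, 2.42 with scaled counts and 4.09 with the ML cut at 6. At least 1 Areg count was found in 77.4% of ML cells (74.7 to 79.9), 18.9% of LP cells (16.3 to 21.7) and 4.22% of basal cells (3.18 to 5.47). After every cell was thinned to 1500 counts, which left out 73 ML, 155 LP and 404 basal cells, these shares were 68.7%, 12.7% and 2.40%.

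Stc2 was found in nearly every ML cell. It had 3045 CPM (2991 to 3100) in ML cells, 407 CPM (382 to 434) in LP cells and 29.0 CPM (22.9 to 36.2) in basal cells, and the level in ML cells was 7.48-fold (7.01 to 8.00) that in LP cells and 105-fold (84.0 to 133) that in basal cells. The shares of cells with a count were 96.2% of ML cells, 24.8% of LP cells and 3.98% of basal cells, and 90.3%, 19.3% and 3.19% at equal depth.

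Cited1, the transcriptional co-regulator, had 1260 CPM (1225 to 1295) in ML cells, 334 CPM (311 to 359) in LP cells and 6.78 CPM (4.02 to 10.7) in basal cells. The level in ML cells was 186-fold (118 to 314) that in basal cells and 3.77-fold (3.49 to 4.07) that in LP cells. At equal depth 61.3% of ML cells, 12.4% of LP cells and 0.912% of basal cells had a count. As a class, LP cells therefore stood closer to ML cells for Cited1 than for Areg or Stc2. Of the 784 Cited1 counts of the class, 710 came from LP cells with 3 to 7 Prlr and Gpx3 counts. In LP cells without such counts the intervals overlapped, with Cited1 at 1.31% (0.813 to 2.01) of its ML level. There Areg was at 1.18% (0.867 to 1.58) and Stc2 at 0.880% (0.609 to 1.23).

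The 2 progesterone-linked ligands and Calca were sparse. Wnt4 had 127 counts in ML cells, 32.2 CPM (26.8 to 38.3), against 17 counts and 7.25 CPM (4.22 to 11.6) in LP cells and 18 counts and 6.78 CPM (4.02 to 10.7) in basal cells, so that its level in ML cells was 4.44-fold (2.67 to 7.86) and 4.75-fold (2.89 to 8.27) higher. Wnt4 was counted in 10.5% of ML cells, 2.03% of LP cells and 1.09% of basal cells, and in 4.96%, 0.878% and 1.37% at equal depth. Its LP and basal levels could not be told apart by their intervals (ratio 1.07, 0.518 to 2.20).

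Tnfsf11 had 63 counts in 37 ML cells, 15.96 CPM (12.3 to 20.4), against 12 counts in 8 LP cells, 5.12 CPM (2.65 to 8.94), and 2 counts in 1 basal cell. The ML level was 3.12-fold (1.67 to 6.35) that in LP cells and 21.2-fold (5.63 to 179) that in basal cells. Calca had 45 counts in 20 ML cells, 11.4 CPM (8.32 to 15.3), and 23 counts in 12 LP cells, 9.81 CPM (6.22 to 14.7). The ratio of ML to LP for Calca was 1.16 (0.688 to 2.01), which includes equality. Calca had 0 counts in 1281 basal cells, which allows a count in up to 0.234% of them, and its ML level was at least 10.1-fold higher, with the basal class set to a floor of 3 counts. Calca has a close paralog, Calcb, whose reads can be hard to separate from it, so its counts are uncertain to that extent.

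Greb1 could not be assessed. It had 5 counts in the whole library, 2 in ML cells, 0 in LP cells, 2 in 1 basal cell and 1 in an unclassified cell. Counts at or under the floor of 3 in each class give no fold, and they do not show that the gene is silent.

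Areg, Wnt4 and Stc2, 3 of 7 members, were at least 4-fold higher in ML cells than in both LP and basal cells, beside 1.88% of the 8998 genes with 50 or more counts (169 genes). Over the 6 members with 50 or more counts the median fold was 4.1 over LP cells and 61.4 over basal cells, with Calca at its bound in the latter, beside medians of 1.19 and 1.05 over all genes tested. The intervals of Wnt4, Tnfsf11 and Cited1 against LP cells all include 4-fold, so the side of the line on which these 3 fell was not settled by the counts. At a fold of 2 the count was 5 of 7, beside 6.99% of all genes, and at a fold of 8 it was 1 of 7, beside 0.456%.

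**Figure D1:**
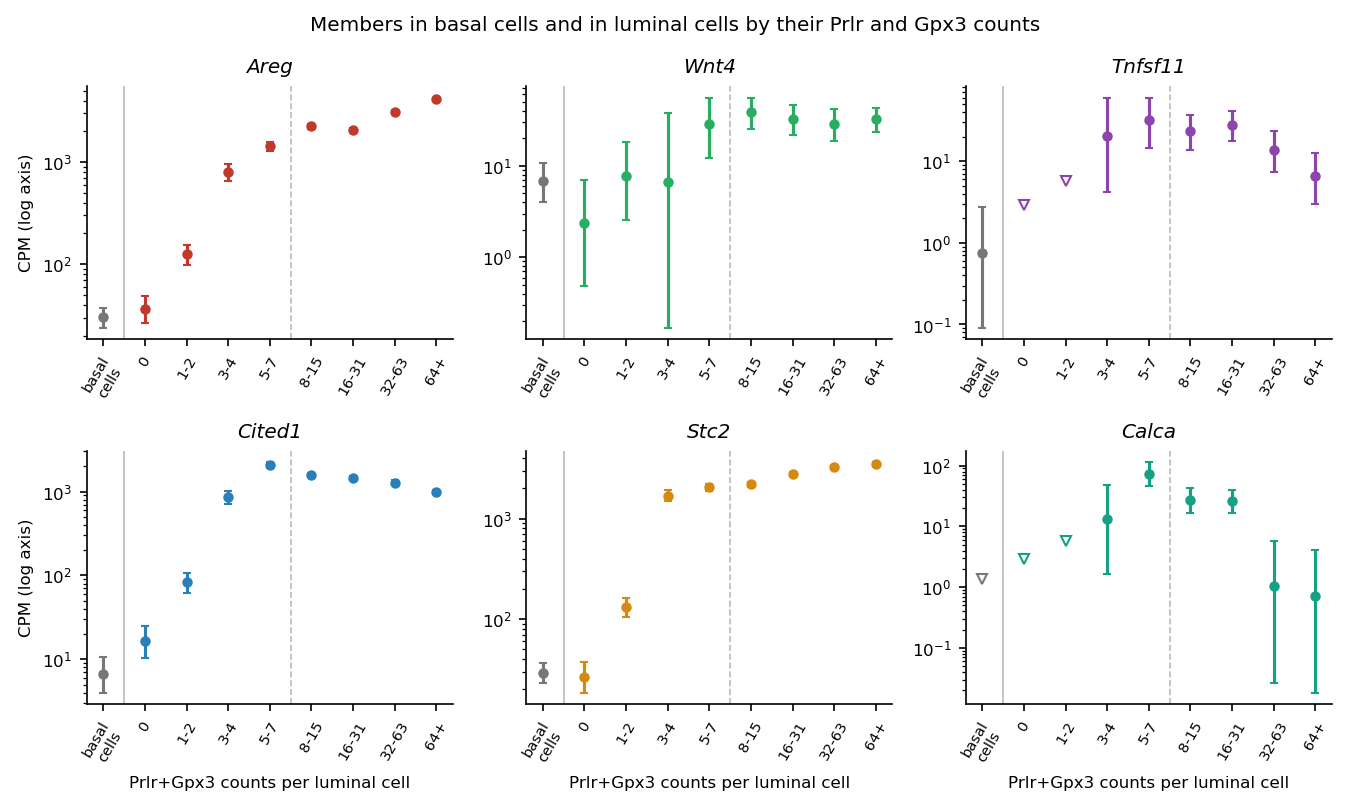
CPM of 6 members (log axis, separate for each gene) in basal cells (grey) and in luminal cells binned by their summed Prlr and Gpx3 counts, with exact 95% Poisson intervals. Open triangles mark the upper limit of a bin with 0 counts, and the dashed line marks the ML cut of 8 counts; Areg and Stc2 were highest in the bin of 64 or more counts, Cited1, Tnfsf11 and Calca in the bin of 5 to 7.

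For 5 members the counts in LP cells came mostly from cells just under the ML cut, and for Wnt4 about evenly from these and the rest. Of the 838 LP cells, 476 had no Prlr or Gpx3 count, 198 had 1 or 2, and 164 had 3 to 7. This division was made after the values were seen. Most of the 164 fell in clusters made up mostly of ML cells, which are described below. Cluster 6 held 55 of them, cluster 12 held 35, cluster 9 held 24, cluster 10 held 20, cluster 13 held 9 and cluster 7 held 6. Clusters made up mostly of LP cells held 2 to 5 of them each. The 164 cells held 523 of the 649 Areg counts, 836 of the 954 Stc2 counts, 710 of the 784 Cited1 counts, 12 of the 12 Tnfsf11 counts and 23 of the 23 Calca counts of the LP class, and 9 of its 17 Wnt4 counts. In them Areg was at 1208 CPM (1106 to 1316) and Stc2 at 1931 CPM (1802 to 2066), both below the ML level. Cited1 was at 1640 CPM (1521 to 1765), above the ML level, and so was Calca at 53.1 CPM (33.7 to 79.7). The ML level as a ratio to these cells was 2.54 (2.32 to 2.77) for Areg, 1.58 (1.47 to 1.69) for Stc2, 0.768 (0.710 to 0.833) for Cited1, 1.55 (0.790 to 3.46) for Wnt4, 0.576 (0.308 to 1.17) for Tnfsf11 and 0.215 (0.127 to 0.372) for Calca.

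The 476 LP cells without a Prlr or Gpx3 count were close to basal cells for the members. Areg was at 36.2 CPM (26.5 to 48.3), Stc2 at 26.8 CPM (18.6 to 37.4), Cited1 at 16.6 CPM (10.2 to 25.3) and Wnt4 at 2.36 CPM (0.488 to 6.91), and Tnfsf11 and Calca had 0 counts, which allows a count in up to 0.630% of these cells. Against them, 6 of 7 members were at least 4-fold higher in ML cells, and higher by the same measure against basal cells, beside 3.16% of all genes. Tnfsf11 and Calca passed as bounds only. These LP cells were picked after the values were seen, by the lack of the genes that pick ML cells. The 6 of 7 is therefore a description and not a test. The ratios were 84.5 (63.3 to 116) for Areg, 114 (81.3 to 164) for Stc2, 76.2 (49.8 to 123) for Cited1 and 13.6 (4.55 to 66.9) for Wnt4, from 3 counts, and at least 6.75 for Tnfsf11 and 4.82 for Calca. In the library as a whole, ML cells, cells past both cuts and LP cells with 3 to 7 Prlr and Gpx3 counts together held 98.4% of Areg, 98.5% of Stc2, 98.4% of Cited1, 97.4% of Tnfsf11 and 84.2% of Wnt4 counts, and all 70 Calca counts. Cells were not sparse around the ML cut: 105 luminal cells had 5 to 7 Prlr and Gpx3 counts and 91 had 8 to 10.

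Basal cells held a low level of the members most often counted in ML cells. The basal level was 0.984% (0.780 to 1.22) of the ML level for Areg, 0.952% (0.751 to 1.19) for Stc2 and 0.538% (0.319 to 0.850) for Cited1. In LP cells without a Prlr or Gpx3 count the values were 1.18%, 0.880% and 1.31%. Ly6d, an ML marker that no cut used, was at 1.37% (1.13 to 1.64) in basal cells and 4.84% (4.18 to 5.57) in those LP cells. Foxa1, another such marker, was at 2.98% (0.969 to 6.96) and 4.996% (1.36 to 12.8), from 5 and 4 counts. The share of basal cells with a count, such as 4.22% for Areg at a median of 1821 counts per cell against 3470 in ML cells, is taken as the background below which a share is not read as expression. Free RNA in the droplets was not measured. Wnt4 had a higher basal level of 21.1% (12.5 to 33.3) of its ML level, from 18 counts in 14 cells. Esr1 (12.5%, 5.99 to 23.0) and Pgr (6.75%, 3.24 to 12.4) were also higher, each from 10 counts.

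The sorted basal library gave a second view of the members outside ML cells. It held 4771 cells with a median of 487 counts, and its cells and those of the total epithelium were thinned to 300 counts, which left out 882 sorted cells. Wnt4 was at 6.0 CPM (2.41 to 12.4) in the sorted library and 5.2 CPM (0.630 to 18.8) in basal cells of the total epithelium, Stc2 at 10.3 and 26.0 CPM, Cited1 at 12 and 5.2 CPM, and Areg at 3.43 (0.934 to 8.78) and 26.0 (12.5 to 47.9) CPM. In ML cells thinned alike the levels were 2991 CPM for Areg, 3164 for Stc2 and 1304 for Cited1. Calca had 0 counts in the sorted library, which allows a count in up to 0.0629% of its cells, and Tnfsf11 had 2 and Greb1 2. At full depth the levels in the 3918 sorted cells with 3 or more counts of Krt5, Krt14 and Acta2 and in all sorted cells were 5.96 and 8.04 CPM for Wnt4, 5.96 and 12.05 CPM for Stc2, 4.13 and 8.84 CPM for Cited1, and 0.459 (1 count) and 5.22 CPM (13 counts) for Areg. The libraries differ in sort and depth, and these cannot be told apart.

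ML cells differed widely from each other in Areg. Its count ran from 0 to 94 per ML cell with a median of 5, and the top 107 cells held 42.4% of all Areg counts in the class. Stc2 ran from 0 to 63 with a median of 9 and its top 107 cells held 28.7%, and Cited1 ran from 0 to 55 with a median of 2 and its top cells held 41.7%. In the 988 ML cells thinned to 1500 counts the variance was 7.67 times the mean for Areg, 3.71 for Stc2 and 3.52 for Cited1, beside 1.88 for Prlr and 18.1 for Gpx3. The means were 4.41, 4.69, 1.89, 3.01 and 17.8 counts in the same order. This ratio depends on the mean, so it does not rank the genes by unevenness. No Areg count was left in 31.3% of these cells, where a Poisson spread around the same mean would leave 1.21%, and for Stc2 the values were 9.72% and 0.918%. Wnt4 had a variance of 1.06 times its mean, with 95.0% of cells at 0 beside 94.9% for the Poisson spread. Its mean was 0.0526 counts per cell. At so low a mean both values lie near the Poisson ones whether or not cells differ, so its spread could not be judged. Calca (2.63) and Tnfsf11 (1.44) were uneven: the 3 highest ML cells held 40.0% of the Calca counts, with 7 in 1 cell, and 30.2% of the Tnfsf11 counts, with 11 in 1 cell.

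**Figure D2:**
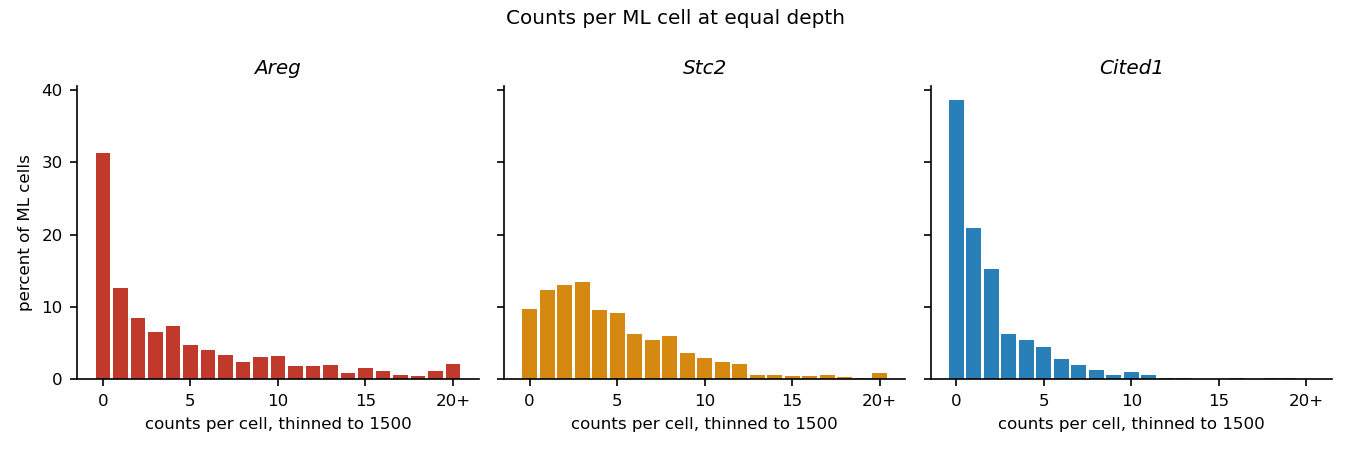
Percent of the 988 ML cells by their count of Areg, Stc2 and Cited1 after thinning to 1500 counts per cell; the last bar holds cells with 20 or more. Areg was at 0 in 31.3% of cells and had the longest right tail, with a variance 7.67 times its mean.

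At 1500 counts per cell Stc2, Areg and Cited1 were counted in 90.3%, 68.7% and 61.3% of ML cells, and each other member in at most 4.96%. An ML cell had 2.29 ± 0.80 of the 7 members (mean ± SD over 988 cells), with a median of 2. Of these cells 43.1% had 2 members and 41.9% had 3 or more. LP cells with 3 to 7 Prlr and Gpx3 counts had 2.07 ± 1.14 (125 cells), LP cells without such counts 0.0775 ± 0.295 (387 cells) and basal cells 0.0810 ± 0.316 (877 cells). Only 17 ML cells had no member at this depth. Cited1 was counted in 61.1% (57.3 to 64.8) of ML cells with Areg and 61.8% of those without, and Areg in 70.0% (66.8 to 73.0) of cells with Stc2 and 57.3% (46.8 to 67.3) of those without, intervals that overlap slightly. At full depth the Areg level was 1.75-fold (1.51 to 2.05) higher in ML cells with Stc2 (median 3514 counts) than in the 40 without (median 2280). The ML class held 10 cells with fewer than 3 counts of Krt8, Krt18 and Krt19, and their part in these 40 was not tested. In ML cells with Cited1 the Areg level was 0.870-fold (0.835 to 0.907) that in those without.

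Tnfsf11 and Calca shared cells. At full depth Calca was counted in 8 of the 37 Tnfsf11-positive ML cells, 21.6% (9.83 to 38.2), and in 12 of the other 1024, 1.17% (0.607 to 2.04). The Calca level was 140 CPM in the former and 5.82 CPM in the latter, a ratio of 24.1 (12.9 to 45.4). At 1500 counts per cell only 2 cells held both, 9.52% (1.18 to 30.4) of 21 against 1.03%, so the intervals then overlapped. Levels of Areg and Stc2 went the other way. In Tnfsf11-positive ML cells Areg was 0.662-fold (0.592 to 0.738) and Stc2 0.566-fold (0.502 to 0.637) the level in the other ML cells. In Calca-positive cells they were 0.571-fold (0.479 to 0.677) and 0.583-fold (0.489 to 0.690). Cited1 was 1.2-fold (1.05 to 1.37) and 1.48-fold (1.24 to 1.74). These intervals leave out the spread between cells. Shares of cells with Areg were not lower at full depth: 83.8% (67.99 to 93.8) of Tnfsf11-positive and 77.2% of other ML cells. Areg was counted in 17 of the 20 Calca-positive cells and 77.2% of the others. At 1500 counts per cell these shares were 76.2% and 68.6% for Tnfsf11, and 58.3% and 68.85% for Calca. All these intervals overlapped, so the lower levels do not show that the genes avoid each other.

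Levels of most members rose or fell along Gpx3, a secreted glutathione peroxidase and a gene of the ML cut. Since Gpx3 counts helped to choose these cells, the order is a description and not a test. When the ML cells were cut into 3 equal groups by the Gpx3 share of their counts, a division made after the values were seen, their median depths were alike (3456, 3442 and 3507 counts). Areg was at 1937 CPM (1863 to 2012) in the low-Gpx3 group, 3052 in the middle group and 4239 (4128 to 4352) in the high-Gpx3 group, and Stc2 at 2222, 3152 and 3793 CPM. Cited1 ran the other way at 1509, 1340 and 922 CPM. Tnfsf11 was at 28.1 CPM (19.9 to 38.6), 17.0 and 2.30 CPM (0.475 to 6.73), and Calca at 29.6 (21.2 to 40.3), 3.10 and 0.767 CPM (0.0194 to 4.27). Wnt4 showed no order, at 38.5, 23.2 and 34.5 CPM.

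The ratio of the high-Gpx3 to the low-Gpx3 group was 2.19 (2.09 to 2.29) for Areg, 1.71 (1.63 to 1.79) for Stc2, 0.897 (0.588 to 1.36) for Wnt4, 0.611 (0.569 to 0.657) for Cited1, 0.0818 (0.0162 to 0.258) for Tnfsf11 and 0.0259 (0.000640 to 0.153) for Calca. The low-Gpx3 group held Tnfsf11 in 22 cells and Calca in 16, and the high-Gpx3 group in 3 cells and 1 cell. Without the 3 ML cells highest for each gene the levels of Tnfsf11 were 20.03, 10.9 and 2.30 CPM and those of Calca 16.4, 3.10 and 0.767 CPM.

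**Figure D3:**
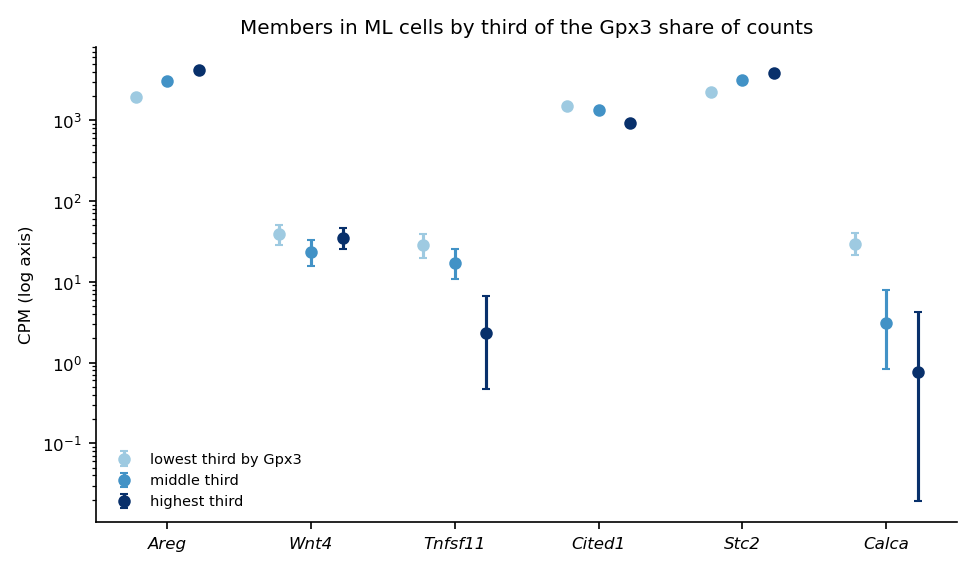
CPM (log axis) of 6 members in the 1061 ML cells cut into 3 groups by their Gpx3 share, with exact 95% Poisson intervals. Areg and Stc2 were higher toward the Gpx3-rich group, Cited1, Tnfsf11 and Calca lower, and the Wnt4 intervals overlapped.

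Clusters made without the members, though with Gpx3 among the genes that could enter, had a like division at their ends. They are not independent of the Gpx3 groups, since Gpx3 could shape them and also orders them here. Leiden clustering on variable genes other than the 7 members gave 24 clusters, 18 of them with 30 or more cells, and ML cells were the largest class in 7 of these. For 6 of 7 members the highest of the 18 clusters was one of these 7; Greb1, with 5 counts, was the other. Cluster 4 (236 cells) had the most Gpx3, 22990 CPM, and the highest Areg, 5361 CPM (5212 to 5514), and Stc2, 3883 CPM. Its Cited1 level was the lowest of the 7 at 457 CPM (414 to 503), against 1933 CPM in cluster 7, and it held 2 Tnfsf11 counts and 0 Calca counts. Cluster 6 (181 cells: 117 ML and 64 LP) had the least Gpx3 of the 7, 3886 CPM, the highest Tnfsf11, 71.8 CPM (50.02 to 99.9), and the highest Calca, 65.7 CPM (44.9 to 92.7). Tnfsf11 was counted in 9.39% of its cells and Calca in 7.18%. Areg in cluster 6 was at 1401 CPM and in cluster 9, its lowest, at 851 CPM.

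The spread among the 7 clusters, highest over lowest, was 6.30 (5.67 to 7.02) for Areg, 4.23 (3.79 to 4.73) for Cited1, 2.61 (2.45 to 2.79) for Stc2, 2.05 (1.13 to 3.86) for Wnt4, 32.8 (8.41 to 281) for Tnfsf11 and at least 19.96 for Calca. Neighbours in these orders often did not differ beyond counting error: the Stc2 intervals of clusters 7 and 4 overlapped, and so did the Wnt4 intervals of most clusters. Cluster 10 (156 cells, median 5287 counts) carried the LP genes Elf5 (198.8 CPM) and Csn3 (3088 CPM) beside Areg at 1377 CPM, Cited1 at 881 CPM and Stc2, its lowest of the 7, at 1486 CPM. Its depth was the highest of all clusters, and the part of doublets in it was not tested.

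**Figure D4:**
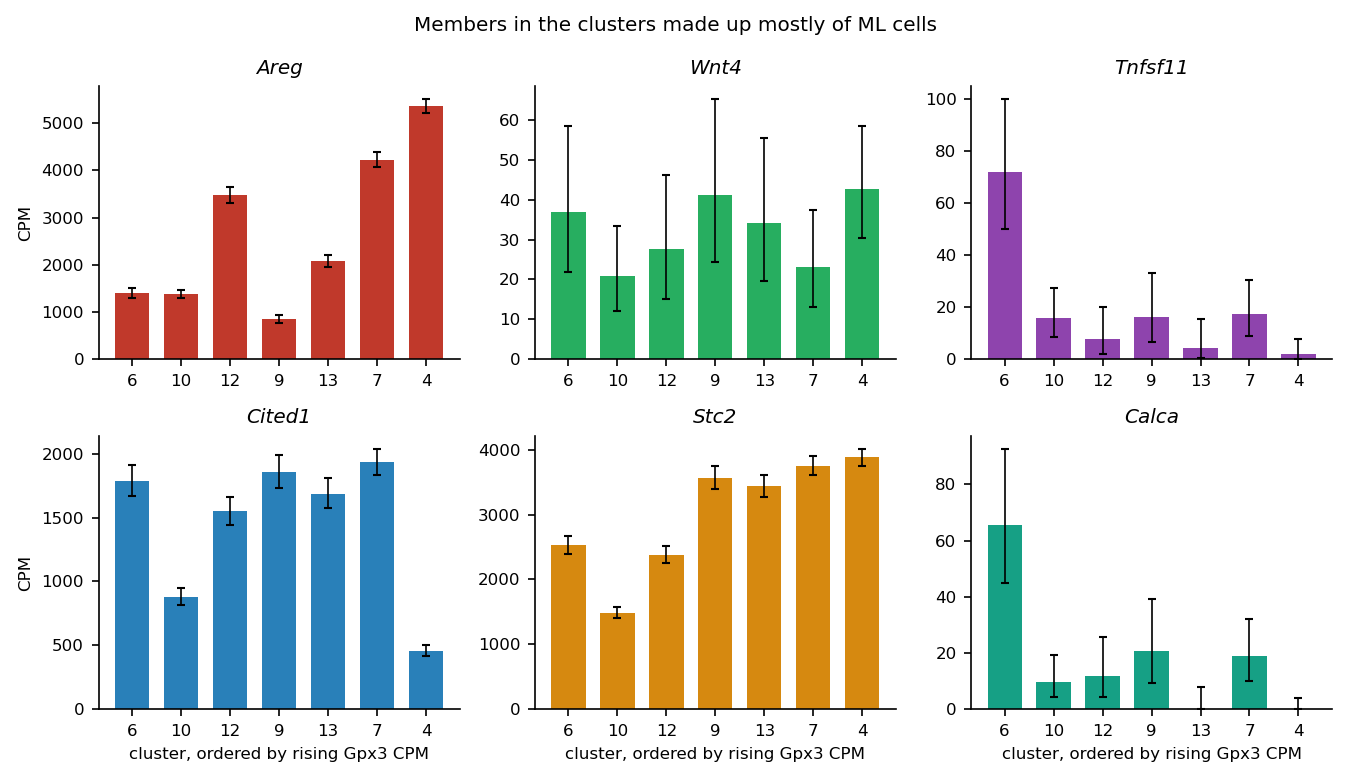
CPM (bars from 0, separate axis for each gene) of 6 members in the 7 clusters made up mostly of ML cells, ordered from left to right by rising Gpx3, with exact 95% Poisson intervals. Cluster 6, at the left, led in Tnfsf11 and Calca, and cluster 4, at the right, led in Areg and was lowest in Cited1.

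The genes most like each member over the 18 clusters were found by Pearson's r of log2(CPM + 10), as a description, since clusters share 1 library and differ in depth. For Areg they were Gpx3 (r = 0.98), R3hdml (0.97) and Tox2 (0.96), and for Stc2 Cxcl15 (0.98), Tmem54 (0.98) and Gpx3 (0.98). For Cited1 they were Arg1, which encodes arginase 1 (0.98), Cdo1, a cysteine dioxygenase (0.97), and Prlr (0.97), and for Wnt4 the class I histocompatibility gene H2-D1 (0.96), Vmp1 (0.95) and Hap1 (0.95). Tnfsf11 was followed by Hba-a1 (0.93), Faah (0.83) and Mtf2 (0.83), and Calca by Hba-a1 (0.90) and Aldh3b2 (0.84). Hba-a1, an alpha-globin gene, had 76 counts in ML cells, 13 in LP cells and 0 in basal cells, while Hbb-bs, the other erythroid marker of the list, had 0 counts in all 3 classes. Tnfsf11 and Calca followed each other at r = 0.97. Such values include the difference between clusters mostly of ML cells and the others, and Gpx3 and Prlr are genes of the ML cut. Over the 7 clusters mostly of ML cells r with Gpx3 was 0.73 for Areg, 0.62 for Stc2 and 0.20 for Wnt4. It was -0.59 for Cited1, -0.74 for Tnfsf11 and -0.69 for Calca. There Tnfsf11 and Calca were at r = 0.95, and Areg and Cited1 at -0.41, against 0.92 over the 18 clusters. Greb1 had too few counts for such a ranking.

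Hormone receptor transcripts were themselves sparse in ML cells. Pgr, the progesterone receptor, was at 55.7 CPM and counted in 16.5% of ML cells, Esr1, the estrogen receptor, at 30.2 CPM and in 9.05%, and Foxa1, a factor that opens chromatin for the estrogen receptor, at 63.1 CPM and in 17.3%. At 1500 counts per cell Areg was counted in 63.5% (52.4 to 73.7) of the 85 Pgr-positive and 69.2% of the other ML cells, Stc2 in 92.9% and 90.03%, and Cited1 in 51 of the 85 cells and 61.5% of the others. In the 44 Esr1-positive cells the shares were 70.5% (54.8 to 83.2) for Areg, 90.9% for Stc2 and 61.4% for Cited1, against 68.6%, 90.3% and 61.3% in the others. With a Prlr count the shares were 68.9% for Areg, 91.4% for Stc2 and 61.9% for Cited1, and without one 67.6%, 81.1% and 56.8%. No difference in these shares by Esr1 or Pgr was detectable at this depth.

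At full depth the Pgr-positive ML cells (median 3734 counts, against 3406) had 1.32-fold (1.27 to 1.38) the Areg level of the others and 0.383-fold (0.120 to 0.945) the Tnfsf11 level, the latter from 5 counts. The 96 Esr1-positive ML cells (median 4241 counts, against 3419) had 0.914-fold (0.860 to 0.971) the Areg level, 0.782-fold (0.732 to 0.834) the Stc2 level and 1.28-fold (1.18 to 1.39) the Cited1 level of the others. Tnfsf11 was counted in 4 of 175 Pgr-positive cells, 2.29% (0.626 to 5.75), and in 3.72% of the others. Calca was counted in 1 of these 175 cells.

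Of 49 genes listed as receptors and partners of the members or as hormone receptors, 39 had 20 or more counts over the 3 classes. Among these, basal cells had the highest level for 18, LP cells for 6 and ML cells for 15. The share of all genes highest in each class was not computed. Counts of genes highest in a class, here and for each axis below, therefore do not show a lean of the lists. At 50 or more counts, 10 of 33 were at least 4-fold higher in basal than in ML cells, beside 8.57% of all genes, 7 were at least 4-fold higher in LP than in ML cells, beside 4.17%, and 6 were at least 4-fold higher in ML than in basal cells, beside 7.33%. Against LP cells, 3 were at least 4-fold higher in ML cells, beside 3.28%. Prlr, by which ML cells were chosen, is among the 15, the 6 and the 3, and without it 5 and 2 of 32 genes were at least 4-fold higher in ML than in basal and than in LP cells.

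The receptor of amphiregulin was lowest where the ligand was highest. Egfr was at 30.5 CPM (81 counts) in basal cells against 13.2 CPM in LP cells and 2.53 CPM in ML cells, 12-fold (6.22 to 26.0) higher in basal than in ML cells. Its partners Erbb2 (4.52, 13.2 and 26.1 CPM) and Erbb3 (1.13, 16.2 and 30.2 CPM) had the opposite order, and Adam17, the protease that sheds amphiregulin, was at 11.7, 12.8 and 25.8 CPM. Erbb4 had 2 counts.

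RANKL met the same arrangement. Tnfrsf11a, its receptor RANK, was at 23.0 CPM (61 counts) in basal cells against 11.9 CPM in LP cells and 2.03 CPM in ML cells, 11.3-fold (5.401 to 27.4) higher in basal than in ML cells. Tnfrsf11b, the decoy receptor osteoprotegerin, had 96 counts in basal cells against 6 in LP cells and 0 in ML cells, at least 47.6-fold higher in basal than in ML cells. Of the genes downstream, Id2 was at 272, 236 and 57.0 CPM in basal cells, LP cells and ML cells and Ccnd1, cyclin D1, at 28.6, 122 and 98.8 CPM. Traf6 (4.89, 12.4 and 4.56 CPM) and Chuk (32.4, 35.0 and 32.7 CPM) had no such order.

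Among 25 genes of the Wnt axis, 18 had 20 or more counts, and 12 of these were highest in basal cells. Nkd1, a feedback inhibitor of the pathway, was at 123 CPM in basal cells and had 2 and 3 counts in LP and ML cells. The receptors Fzd7 (52.0, 1.71 and 0.760 CPM), Fzd1 (36.9, 8.10 and 1.01) and Fzd3 (20.7, 4.26 and 6.33), the R-spondin receptors Lgr5 (23.3, 1.28 and 0.507) and Lgr6 (30.5, 17.9 and 1.77), and Tcf7 (8.66, 0.427 and 1.01), Znrf3 (6.02, 0.853 and 1.27) and Rnf43 (6.02, 5.97 and 2.03) were also highest in basal cells, Rnf43 by little. Fzd4 (3.01, 3.41 and 11.2), Fzd6 (8.66, 9.38 and 21.3) and Fzd10 (1.51, 0.853 and 6.84) were highest in ML cells. Rspo1, which encodes R-spondin 1, was at 15.4 CPM in LP cells against 1.88 in basal and 2.53 in ML cells. Wls, which exports Wnt proteins, and Porcn, which acylates them, were at 75.3 and 13.4 CPM in ML and 121 and 22.6 CPM in basal cells. Lrp5 (24.8, 22.2 and 27.6) and Lrp6 (31.6, 21.8 and 25.6) were level, and Tcf7l2 was at 42.5, 49.1 and 14.2 CPM.

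The receptor core for Calca peptides was not detected: Calcrl and Calcr had 0 counts in the 3 classes, under a floor of 1.13 CPM in basal and 0.760 CPM in ML cells. Their accessory subunits were. Ramp1 was at 183 CPM (429 counts) in LP cells against 56.8 in basal and 34.5 in ML cells, Ramp3 had 55 counts in basal cells and 0 in the others, and Ramp2 had 35 counts in ML cells, 5 in basal cells and 1 in LP cells. Among the hormone axis genes 7 of 8 were highest in ML cells, Prlr among them by the choice of the cells, with Gata3 at 244 CPM, Stat5a at 84.6 CPM and Jak2 at 10.6 CPM there against 95.2, 23.0 and 6.78 CPM in basal cells.

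**Figure D5:**
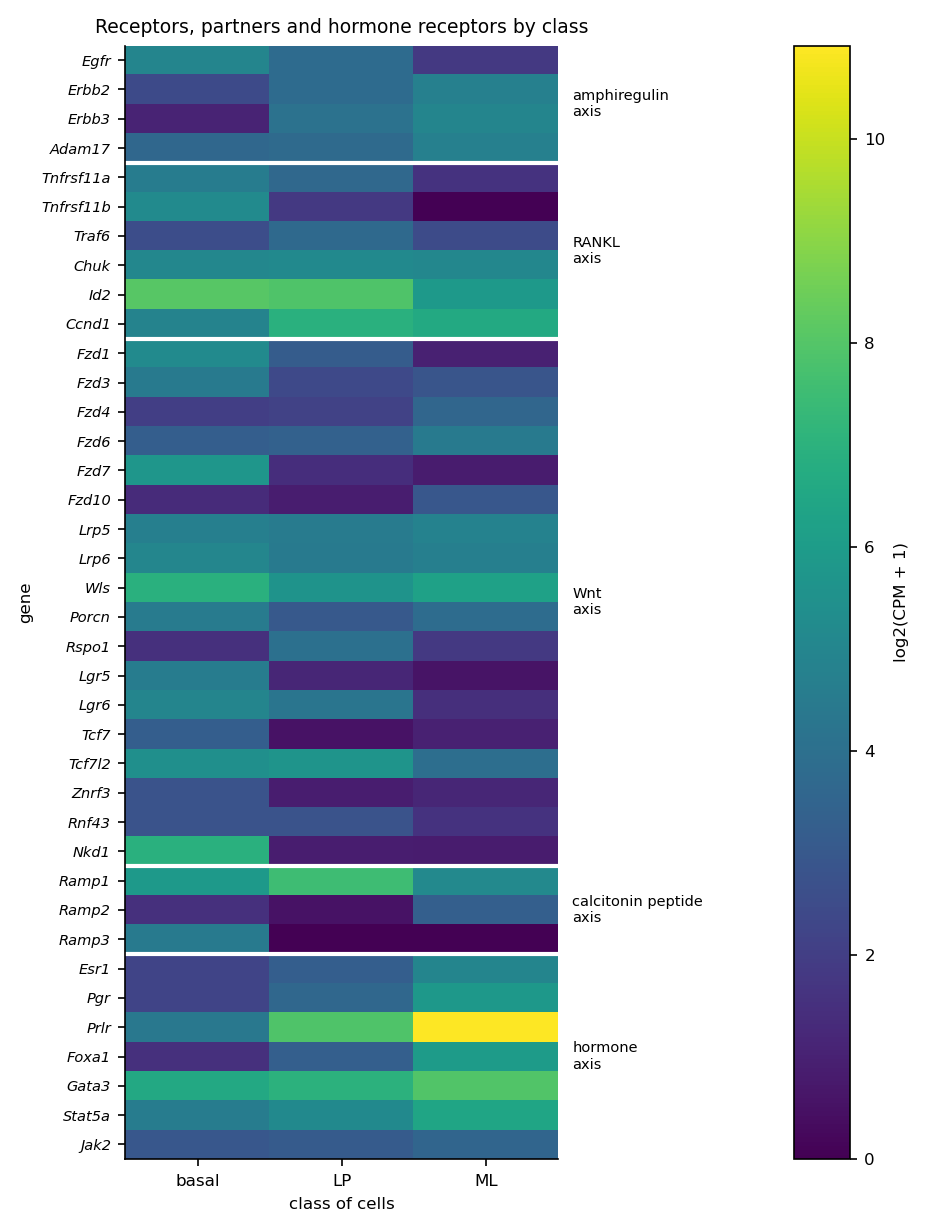
Level, as log2(CPM + 1), of 38 of the 39 listed receptors, partners and hormone receptors with 20 or more counts (rows, grouped by axis) in basal, LP and ML cells (columns). Egfr, Tnfrsf11a and Tnfrsf11b were highest in basal cells, and Esr1, Pgr, Prlr and Foxa1 in ML cells.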

How the data were processed

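The authors processed both Chromium libraries with Cell Ranger (version 1.2.1 and genome mm10 per the submitters' processing notes; the study's methods name a later version) and deposited counts of unique molecules per gene and cell as whole numbers, without normalization. Collapse of reads to molecules and the choice of barcodes were thus made before deposit. Barcodes with fewer than 802 counts (total epithelium) and 137 counts (sorted basal cells) are not in the tables, and reads shared by near-identical genes are usually dropped by such counting. The total epithelium held 9227651 counts and the sorted basal library 2488704.

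Counts were summed per class and divided by the counts of the class (CPM). No cell was removed, no doublet caller was run, and the 25 cells past both the basal and the ML cut were kept apart. Near the cuts, 28 luminal cells had 7 and 29 had 8 Prlr and Gpx3 counts. With 1 library per group no test was run. A class at 0 was set to a floor of 3 counts. A gene was called at 4-fold, and genes with 50 or more counts formed the background. Shares of cells were also computed after cells were thinned without replacement to 1500 counts (300 between libraries). Clusters used 2000 variable genes without the members and without mitochondrial and ribosomal protein genes, 30 components, 15 neighbours and resolution 2, in leidenalg 0.10.2 and igraph 0.11.9. Genes named were the members, the genes of the cuts, listed partners with 20 or more counts, markers, and for each member the 3 genes most like it over clusters of 30 or more cells; 1 listed gene and 1 of the genes most like a member are counted but not reported here by name. The members and lists were chosen with earlier results of these data known. The fold call and the intervals were tested on simulated data. Alternatives were other cuts, folds, denominators, thinning depths and resolutions. LP cells without Prlr or Gpx3 counts, an ML cut on Prlr alone, the 3 Gpx3 groups and the order of ML clusters by resolution were added after the data were seen. Analyses used Python 3.11.15 with numpy 2.4.6 and scipy 1.17.1, and figures matplotlib 3.10.9. Gene positions are from GENCODE (GRCm38), counted from 1.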

Additional observations from a re-analysis of the deposited data

How the results depend on the processing

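The number of members at least 4-fold higher in ML than in LP and basal cells was 3, and it depended most on where LP cells end. It was 5 with the ML cut at 6 counts and 6 when LP cells with a Prlr or Gpx3 count were left out, an alternative added after the values were seen. It was 5 at a fold of 2 and 1 (Areg) at a fold of 8. It was 2 to 4 under the other alternatives, where Areg and Stc2 were called each time; Wnt4 was lost with the ML cut at 12, with scaled counts and after thinning. The levels in ML cells (61 of 77 values) and the shares of ML cells with a count (64 of 70) mostly lay within the counting interval of the reported value. The log2 ratios of ML over LP did so in 33 of 60 cases. With the LP class as in the rule or under other cuts the ratio ran from 2.19 to 4.09 for Areg (reported 3.47), 2.02 to 3.48 for Stc2 (2.90), 1.25 to 2.87 for Cited1 (1.91), 1.29 to 2.58 for Wnt4 (2.15) and 0.96 to 2.89 for Tnfsf11 (1.64). That of Calca (0.22) changed sign, to -0.83 with the ML cut at 12 and -0.72 with scaled counts, and was 1.79 with the cut at 6. The mean number of members per ML cell was 2.07 to 2.64 under other depths and the ML cut at 12. At resolutions 1 and 3 as well, 6 members had their highest cluster among those mostly of ML cells, Areg was highest and Cited1 lowest in the cluster richest in Gpx3, and Calca had 0 counts there; Tnfsf11 was lowest in it at resolution 1 but not at 3, where another cluster had 0 counts. In the sorted basal library 6 members were detected, and 4 among cells with basal keratins. Greb1 had too few counts to be assessed, and for Tnfsf11, Calca and Wnt4 low level and low depth cannot be told apart in single cells. No paired analysis was possible because there is 1 library per group and the groups share fewer than 2 replicate numbers.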

Other observations

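The 25 cells past both the basal and the ML cut had a median of 4565 counts and carried the members at lower levels than ML cells, with Areg at 2079 CPM (1829 to 2354) against 3062, Stc2 at 2146 CPM (1891 to 2425) against 3045 and Cited1 at 802 CPM (649 to 979) against 1260, beside Krt14 at 3406 CPM and Acta2 at 6103 CPM. Of these cells 16 formed most of a cluster of 20. Whether they were doublets was not tested. The 97 unclassified cells held 1 Areg, 1 Stc2, 1 Greb1 and no Cited1, Wnt4, Tnfsf11 or Calca count.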
